A study of Mus musculus with 8 samples.

Results

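Integrins and the proteins that tie them to the cytoskeleton were followed across 8 bulk RNA sequencing libraries as 54 genes, taken from the 56691 rows of the count table by their symbols alone. The set comprises the integrin alpha genes (Itga), the integrin beta genes Itgb1 to Itgb8, and the genes of talins, kindlins, integrin-linked kinase and its partners, filamins, tensins, vinculin, zyxin, VASP and ENAH, focal adhesion kinase, SRC, paxillin, BCAR1, plectin and dystonin. The rule that picks them uses symbols and no measured value.

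An integrin is a pair of membrane proteins, an alpha and a beta chain, that binds matrix outside the cell and the cytoskeleton inside it. Talins and kindlins bind the tail of the beta chain and switch the pair to its active state, the complex of integrin-linked kinase, PINCH and parvin builds on that contact, and vinculin, filamins and tensins couple it to actin. In epithelia the pair encoded by Itga6 and Itgb4 forms hemidesmosomes, which plectin and dystonin anchor to keratin filaments. YAP, the coactivator held back by the Hippo pathway, is known both to respond to such adhesions and to regulate genes that build them.

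The libraries came from organoids, 3-dimensional cultures of mouse hindstomach epithelium (the glandular stomach) taken at embryonic day 18.5, after 5 days in growth medium and 7 more in differentiation medium. The genotype was Shh-Cre in 4 cultures (Ctrl) and Shh-Cre;YAP5SA in 4 (YAP5SA), so both groups carried the Cre, which is driven from the Shh gene. YAP5SA is a form of YAP that lacks inhibitory phosphorylation sites. The labels name no embryo, litter or culture day for any library, so the p-values speak of the spread between libraries, which may be technical.

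Library totals were 17387372 to 25841256 counts. The row for Yap1, in which endogenous and transgenic transcripts cannot be told apart, stood at 118 ± 11.0 CPM in Ctrl and at 140 ± 2.21 in YAP5SA (SD over 4 libraries; CPM are counts divided by the scaled library total). Xist, the RNA of the inactive X chromosome, had 8436 to 12237 counts in Ctrl and 0 to 8 in YAP5SA, while Eif2s3y, on the Y chromosome, had 0 in every Ctrl library and 2663 to 3854 in YAP5SA. Genotype and these sex-linked differences cannot be told apart in any value below, and Flna is itself X-linked. The epithelial genes Epcam, Cdh1, Krt8, Krt18, Krt19, Cldn7 and Esrp1 summed to 15686 to 17196 CPM in Ctrl and 9329 to 11040 CPM in YAP5SA. Of the 7, 2 were called higher (Epcam and Cldn7, beside 33.1% of all genes tested). Another 4 were called lower (Cdh1, Krt8, Krt19 and Esrp1, beside 31.3%), and Krt18 was not called. Most of the fall in the sum was Krt8 (mean 5362 to 2385 CPM) and Krt19 (6397 to 3140 CPM), while Epcam went from 296 to 591 CPM. The summed mesenchymal markers reached 0.583 to 1.52 CPM in Ctrl and 24.0 to 28.7 CPM in YAP5SA. Most of that sum was Vim, with 54 against 2111 counts over a group, the only 1 of the 8 markers abundant enough to test. Pdgfra had 8 against 36 counts with groups that did not overlap, Pdgfrb 2 against 20, Col1a1 9 against 4, Dcn 3 against 0 and Col3a1 1 against 0, while Col1a2 and Lum had 0 in all 8 libraries. Of the 3 mesothelial markers 2 were called higher, Upk3b with 1849 against 8257 counts and Wt1 with 0 against 88, and Msln was called lower. Their sum, nearly all of it Msln, was 3647 to 4305 CPM in Ctrl and 2974 to 3283 CPM in YAP5SA. Markers of neurons and glia summed to at most 2.42 CPM in any library. Endothelial markers summed to at most 1.80 CPM and smooth muscle markers to at most 1.65 CPM in any library. Since the samples are bulk, fewer cells of a type and less RNA per cell cannot be told apart.

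Of the 54 genes, 42 had enough counts to be tested. EdgeR's quasi-likelihood test called 20 of them higher and 15 lower in YAP5SA at an adjusted p under 0.05, and 7 were not called. That is 83.3% of those tested, beside 64.5% of all 13812 genes tested, and by direction 47.6% higher and 35.7% lower beside 33.1% and 31.3%. Beyond a fitted fold of 2 lay 11 higher and 7 lower genes (26.2% and 16.7%, beside 14.0% and 11.5% of all genes tested). The groups did not overlap for 31 of the 42 (73.8%, beside 58.7%), with 18 higher and 13 lower (beside 30.4% and 28.3% of all genes tested). Members moved in both directions, so that their median log2 fold change was -0.07 and their mean 0.25, against 0.02 and 0.09 for all genes tested. Their median distance from no change was 0.86 on the log2 scale, against 0.52 for all genes tested. Tests against a change of 2-fold called 8 higher (Fermt2, Flnc, Itgb8, Parvb, Itga2b, Itga3, Lims1 and Tns3) and 5 lower (Itga1, Fermt1, Zyx, Itga7 and Itgb4). Over all 13812 genes tested, the same test called 1185 higher and 1036 lower. Of the 8, Itgb8 had enough counts to be tested only through the YAP5SA libraries.

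**Figure D1:**
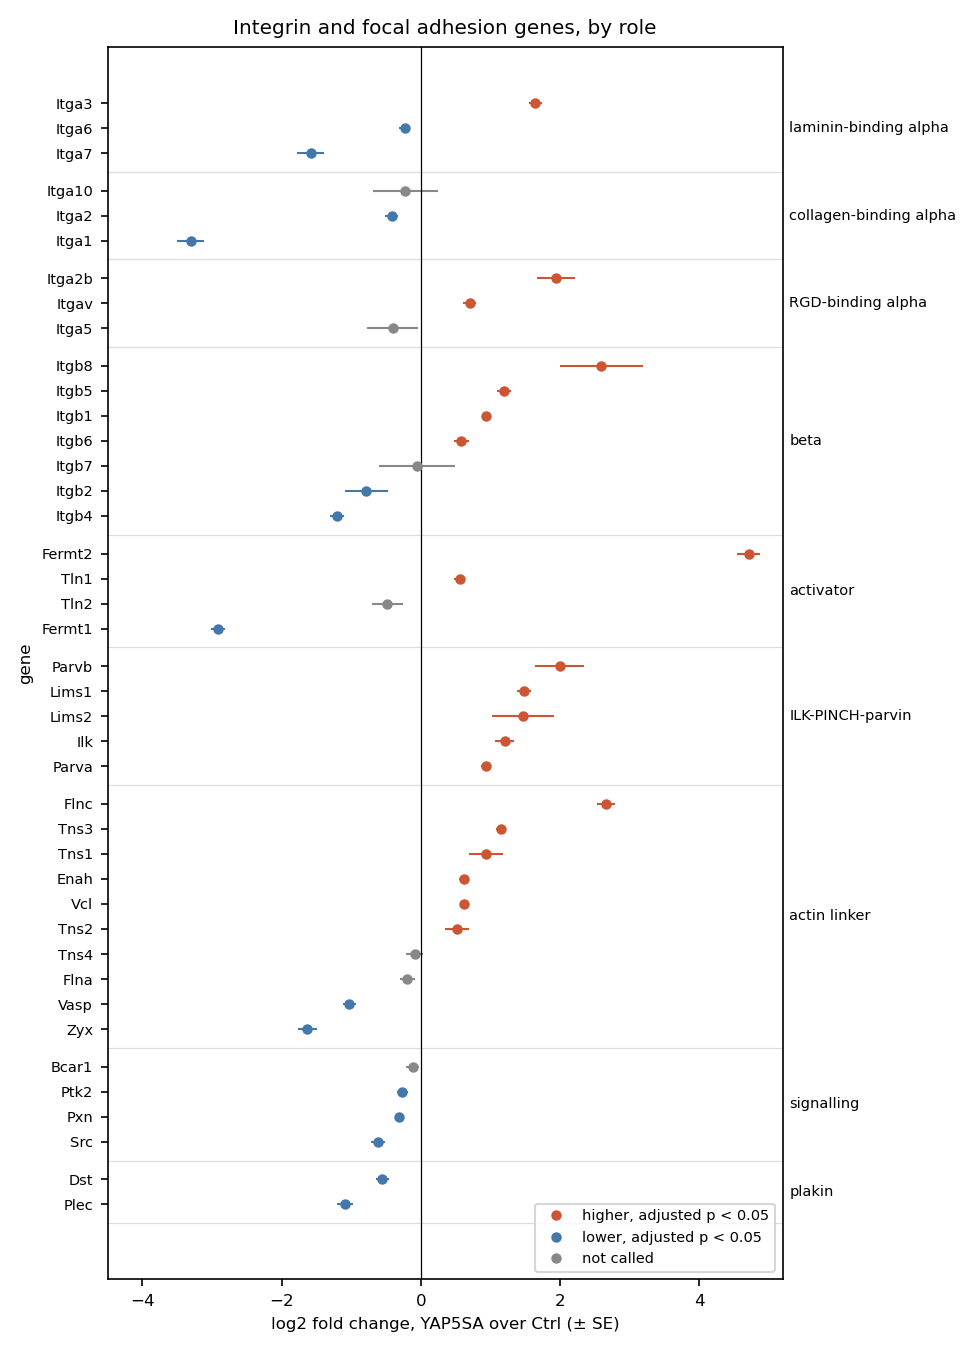
Log2 fold change of YAP5SA over Ctrl (x axis, ± SE of the edgeR fit) for 41 of the 42 genes tested (y axis), grouped by role; colour gives the call at an adjusted p under 0.05. Fermt2 lies farthest to the right at 4.71 and Itga1 farthest to the left at -3.31, and the 5 genes of the complex of integrin-linked kinase, PINCH and parvin all lie to the right of 0.

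The integrins that bind laminin moved apart from one another. Here and below, a value given with an SE is a log2 fold change of YAP5SA over Ctrl, and where values are paired Ctrl comes first. Itga3, whose product pairs with the beta chain of Itgb1 to bind epithelial laminins, was at 259.8, 238, 210.1 and 279 CPM in Ctrl replicates 1 to 4 and at 759.5, 703, 767 and 853 in YAP5SA replicates 1 to 4. Every YAP5SA library lay above every Ctrl library, and Itga3 rose 3.13-fold (log2 fold change 1.64, SE 0.09, edgeR adjusted p = 3.19e-09). Itga6, which pairs with Itgb4 or Itgb1, was at 216, 254, 231 and 252 CPM in Ctrl and at 195, 196, 218 and 202 in YAP5SA. Its ranges overlapped by a narrow margin, and it was at -0.23 (SE 0.07, edgeR adjusted p = 0.0143). That call ended when libraries were scaled by size alone (-0.05, adjusted p = 0.527), a scaling that moves the median of all genes tested from 0.02 to 0.19. Itga7, an alpha chain best known from muscle, stood at 21.1, 46.9, 38.6 and 29.9 CPM in Ctrl and at 11.4, 11.6, 11.9 and 10.6 in YAP5SA. All 4 Ctrl values were above the YAP5SA ones though they spread widely, and Itga7 fell by 1.58 on the log2 scale (SE 0.19, edgeR adjusted p = 6.31e-06).

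Both abundant collagen-binding chains were called lower, beside 31.3% of all genes tested. Itga1, whose product binds type IV collagen, was at 29.9, 20.8, 23.4 and 20.3 CPM in Ctrl and at 1.77, 2.60, 3.30 and 1.91 in YAP5SA. No libraries overlapped, and Itga1 fell by 3.31 (SE 0.20, edgeR adjusted p = 4.59e-09), the steepest fall in the set, 9.91-fold. Itga2, the collagen receptor chain typical of epithelia, went from 189, 162, 145 and 177 CPM to 129, 131, 136 and 109 CPM. The groups did not overlap, but the difference was small (-0.42, SE 0.09, edgeR adjusted p = 0.00155), and it was not called under scaling by library size (-0.24, adjusted p = 0.0543). Of the other collagen-binding chains, Itga10 had a total of 41 counts in Ctrl and 38 in YAP5SA (-0.22, edgeR adjusted p = 0.691), and 33.5% of its exon bases lie under another annotated gene. Itga11 had 2 and 11 counts, a ratio of 5.80 with an exact 95% counting interval of 1.27 to 53.9, and was too scarce to test.

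Among the chains that recognise the RGD motif of fibronectin, vitronectin and latent TGF-beta, Itgav carried nearly all counts. It stood at 131, 166, 142 and 141 CPM in Ctrl and at 242, 224, 268 and 209.6 in YAP5SA. The lowest YAP5SA library exceeded the highest Ctrl library, and Itgav rose by 0.70 (SE 0.09, edgeR adjusted p = 1.48e-05). Itga5, the alpha chain of the classical fibronectin receptor, had a total of 87 counts in Ctrl and 71 in YAP5SA and was at -0.40 (SE 0.37, edgeR adjusted p = 0.352). Itga2b, a platelet integrin chain, was at 0.564, 0.888, 0.875 and 0.614 CPM in Ctrl and at 3.17, 2.60, 3.30 and 2.37 in YAP5SA. The groups did not overlap and Itga2b rose 3.84-fold (1.94, SE 0.27, edgeR adjusted p = 2.68e-05), from a level under 1 CPM. Summed platelet markers were 0.620 to 2.18 CPM in Ctrl and 3.43 to 9.66 CPM in YAP5SA, 1 of the 4 being tested and higher (Ppbp), with 0 against 6 counts of Pf4, 5 against 0 of Gp9 and 10 against 9 of Gp1ba. Their part in the Itga2b result was not tested. Itga8 had 1 count in all.

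Integrin chains of leukocytes stayed near the limit of detection. Itgad had 0 counts in all 8 libraries, where 3 counts in a library correspond to 0.116 to 0.173 CPM. Itgal had 4 and 1 counts in the Ctrl and YAP5SA groups, and Itgax 1 and 4. Itgam, of myeloid cells, had 0, 4, 1 and 0 counts in Ctrl and 16, 8, 6 and 23 in YAP5SA. The groups did not overlap, with a ratio of 11.2 (exact 95% counting interval 4.50 to 35.8), but 68.7% of the Itgam exon bases lie under another annotated gene on the same strand. Itgae, which in lymphocytes binds E-cadherin, had 0 against 13 counts. The exact 95% counting interval of its ratio had a lower end of 3.21, and a floor of 3 counts for the Ctrl group gives 4.57-fold. Itga4 went the other way, with 10, 11, 12 and 8 counts in Ctrl and 0 in every YAP5SA library. The exact 95% counting interval of its ratio had an upper end of 0.0993, and a floor of 3 counts for the YAP5SA group gives 13.0-fold lower. Itga9, of the same family as Itga4, had 5 and 18 counts. Summed leukocyte markers were 9.52 to 18.7 CPM in Ctrl and 67.6 to 73.9 CPM in YAP5SA, with 3 of the 8 tested and 2 of these higher (Cd68 and Csf1r). Laptm5 had 84 against 69 counts, the pan-leukocyte marker Ptprc 15 against 3, Cd3e 4 against 0 and Spi1 0 against 1, and Adgre1 had 0 in all libraries. Their part in the Itgam and Itgae counts was not tested.

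The beta chains were dominated by Itgb1, the partner of most alpha chains. It was at 949.7, 1005, 970.0 and 992 CPM in Ctrl and at 1816, 1991, 1785 and 1943 in YAP5SA. These groups were far apart and internally tight, and Itgb1 rose 1.92-fold (0.94, SE 0.07, edgeR adjusted p = 3.65e-08). Itgb4, the hemidesmosome chain, stood at 230.3, 242, 210.3 and 264 CPM in Ctrl and at 88.6, 94.3, 117 and 111 in YAP5SA. Each YAP5SA library was below every Ctrl library, and Itgb4 fell by 1.20 (SE 0.10, edgeR adjusted p = 1.35e-07).

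Of the partners of Itgav other than Itgb1, the 3 tested were called higher, beside 33.1% of all genes tested. Itgb8, among these 3, had enough counts to be tested only through the YAP5SA libraries, so its call adds no support for a shared rise. Itgb6, an epithelial chain whose pair with Itgav activates latent TGF-beta, was at 174, 202, 187 and 151 CPM in Ctrl and at 277, 295, 283 and 213 in YAP5SA (0.58, SE 0.11, edgeR adjusted p = 0.000338). Itgb5, a vitronectin receptor chain, was at 18.1, 21.5, 17.2 and 16.7 CPM and 44.9, 42.2, 40.4 and 40.95 CPM (1.20, SE 0.10, edgeR adjusted p = 1.25e-07). Neither gene had overlapping groups. Itgb8, which also serves latent TGF-beta, had 5, 0, 1 and 8 counts in Ctrl and 28, 17, 29 and 20 in YAP5SA, so all YAP5SA values were higher, at a very low level (2.59, SE 0.60, edgeR adjusted p = 0.00164; 3.38 without Ctrl replicate 4). Itgb3 had 24 and 33 counts over the groups and was not tested, and Itgb7, a leukocyte chain, was at -0.05 (edgeR adjusted p = 0.939). Itgb2, the beta chain of leukocyte integrins, was at 1.80, 2.31, 1.87 and 1.004 CPM in Ctrl and at 1.09, 0.987, 1.17 and 0.820 in YAP5SA. Its groups overlapped and it was at -0.78 (SE 0.31, edgeR adjusted p = 0.0403). Only without Ctrl replicate 4 was it still called (-0.99); without any other single library it was at -0.85 to -0.65 with an adjusted p of 0.0523 to 0.1135.

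Levels of different genes were compared per kilobase of annotated exon, as CPM per kb. Among alpha chains in Ctrl, Itga3 came first at 36.8 to 48.9 CPM per kb, then Itga6 (24.0 to 28.1) and Itga2 (20.3 to 26.6), whose ranges overlapped, then Itgav (12.2 to 15.5). In YAP5SA Itga3 stood at 123 to 149, far above Itga6 (21.6 to 24.2) and Itgav (19.5 to 24.9), which overlapped, and Itga2 (15.3 to 19.1). Itga3 thus made up 38.2 ± 2.60% of the summed alpha chain level in Ctrl and 67.5 ± 2.77% in YAP5SA (SD, n = 4 each), while Itga6 went from 23.5 ± 1.65% to 11.3 ± 0.530% and Itga2 from 20.9 ± 1.78% to 8.89 ± 1.10%. The order of the beta chains below Itgb1 turned over. In Ctrl, Itgb4 (30.0 to 37.6 CPM per kb) lay above Itgb6 (21.2 to 28.4), and in YAP5SA Itgb6 (30.0 to 41.4) lay above Itgb4 (12.6 to 16.6). Itgb1 held 78.7 ± 0.657% of the summed beta chain level in Ctrl and 87.7 ± 1.13% in YAP5SA, and Itgb4 11.1 ± 0.909% and 2.79 ± 0.414%. The summed level was 1.77 times as high in YAP5SA for the alpha chains and 1.73 times for the beta chains.

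**Figure D2:**
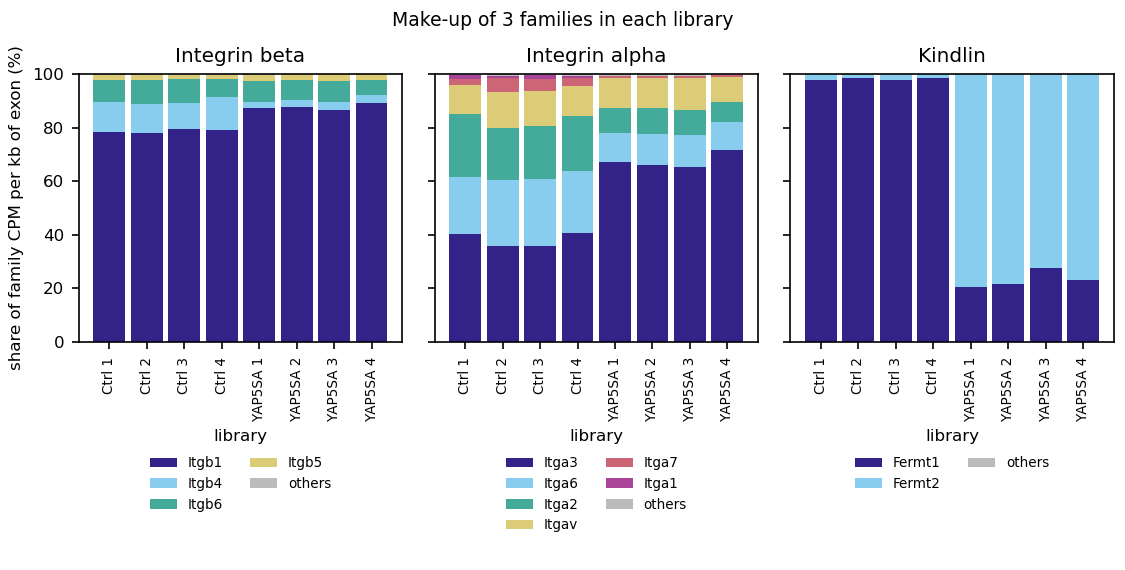
Share of the summed CPM per kb of exon (y axis, percent) held by each gene of the integrin beta, integrin alpha and kindlin families in each of the 8 libraries (x axis). Fermt1 fills 97.8% to 98.7% of the kindlin bar in Ctrl and 20.4% to 27.5% in YAP5SA, and Itga3 grows from 36.0% to 40.7% of the alpha chain bar to 65.5% to 71.5%.

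The kindlin genes exchanged places. Kindlins bind beta chain tails together with talin; Fermt1 encodes the epithelial kindlin, Fermt2 the widely expressed one of mesenchyme and muscle, and Fermt3 that of blood cells. Fermt1 was at 206, 177, 181 and 216 CPM in Ctrl and at 24.8, 26.4, 29.4 and 23.1 in YAP5SA. The highest YAP5SA value was far under the lowest Ctrl value, and Fermt1 fell by 2.91 on the log2 scale (SE 0.10, edgeR adjusted p = 1.56e-11), 7.53-fold. Fermt2 was at 4.06, 2.13, 3.25 and 2.51 CPM in Ctrl and at 87.9, 87.4, 70.3 and 70.3 in YAP5SA. It rose 26.2-fold (4.71, SE 0.16, edgeR adjusted p = 2.15e-11), the steepest rise in the set, with no overlap. Per kilobase, Fermt1 held 98.2 ± 0.464% of the kindlin level in Ctrl and 23.1 ± 3.12% in YAP5SA, and Fermt2 1.65 ± 0.436% and 76.7 ± 3.11% (SD, n = 4 each). The summed kindlin level was 34.9 ± 3.30 CPM per kb in Ctrl and 19.8 ± 1.94 in YAP5SA. Fermt3 had 28 and 24 counts over the groups and was not tested. Vim, Pdgfra and Pdgfrb, of the mesenchymal markers, had more counts in the same libraries as Fermt2, and Col1a1, Dcn, Col3a1, Col1a2 and Lum did not. Their part in the Fermt2 result was not tested.

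The talins are the large rods that join beta chain tails to actin. Tln1 was at 120.4, 122, 104 and 127 CPM in Ctrl and at 169.6, 159, 181 and 188 in YAP5SA. The groups were apart, and Tln1 rose by 0.56 (SE 0.08, edgeR adjusted p = 3.59e-05). Its paralogue Tln2 was at 4.99 ± 1.03 CPM in Ctrl and at 3.57 ± 0.855 in YAP5SA (-0.48, edgeR adjusted p = 0.0740); leaving out Ctrl replicate 4 gave -0.63 and a call (adjusted p = 0.0242). Tln1 held 97.8 ± 0.481% of the talin level per kilobase in Ctrl and 98.9 ± 0.326% in YAP5SA.

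**Figure D3:**
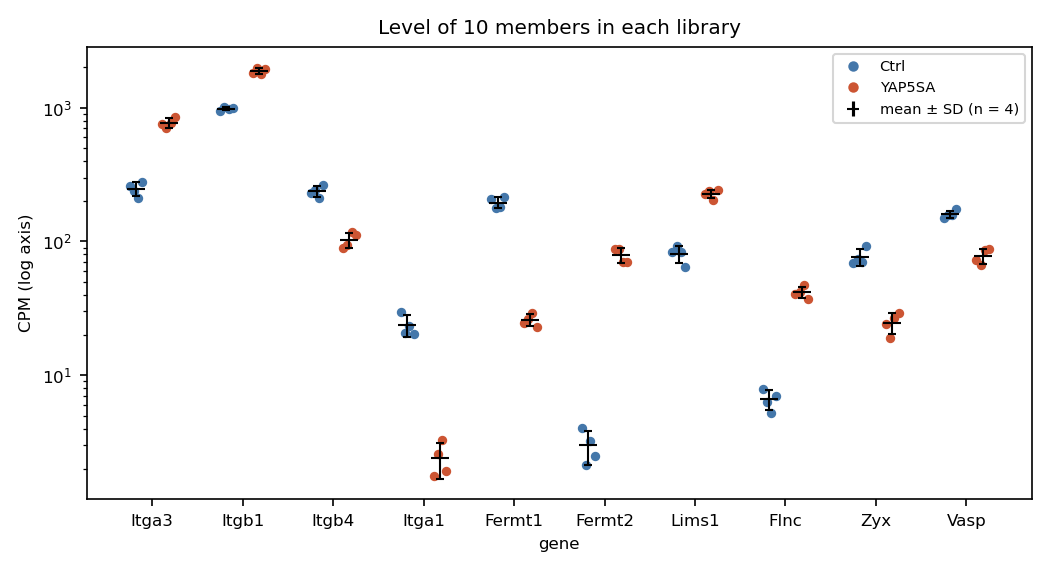
CPM on a log axis (y axis) of 10 genes (x axis) in each library, 4 Ctrl (blue) and 4 YAP5SA (red), with the mean ± SD in black. The groups do not overlap for any of the 10, and Fermt1 and Fermt2 move in opposite directions, from a mean of 195 to 25.9 CPM and from 2.99 to 79.0 CPM.

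All 5 tested genes of the complex that integrin-linked kinase forms with PINCH and parvin rose (100%, beside 33.1% of all genes tested). Their median log2 fold change was 1.47, beside 0.02 for all genes tested. Parvb and Lims2 each had Ctrl libraries under the minimum count of 10 used for testing, and no such YAP5SA library. Their YAP5SA level thus helped them to be tested, so the 100% and the median are not independent of that filter. Lims1, which encodes the main PINCH adaptor, was at 83.5, 91.8, 83.4 and 64.3 CPM in Ctrl and at 225, 237, 204 and 241 in YAP5SA. Every YAP5SA library was more than 2-fold above every Ctrl library, and Lims1 rose 2.81-fold (1.49, SE 0.10, edgeR adjusted p = 1.90e-08). Parva, the main parvin and an actin binder, was at 206, 206, 190.4 and 192 CPM and 396, 379, 378 and 366 CPM, again apart and internally tight (0.94, SE 0.07, edgeR adjusted p = 2.82e-08). Ilk itself, a pseudokinase scaffold, was at 5.91 ± 0.0821 CPM in Ctrl and at 13.6 ± 1.98 in YAP5SA (1.21, SE 0.14, edgeR adjusted p = 3.41e-06). Of its exon bases 89.7% lie under genes on the other strand, first of all Taf10, and without a stated strand setting reads of the overlapping genes cannot be told apart. The scarcer paralogues moved the same way. Parvb was at 1.07, 0.237, 1.21 and 0.614 CPM in Ctrl and at 3.81, 2.75, 3.25 and 3.05 in YAP5SA, without overlap (2.0, SE 0.35, edgeR adjusted p = 0.000205). Lims2 was at 0.738 ± 0.597 CPM and 2.03 ± 0.494 CPM (1.47, SE 0.44, edgeR adjusted p = 0.0101; 2.09 without Ctrl replicate 2), with overlapping groups. Parvg, of blood cells, had 0 counts in all libraries.

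The 11 members grouped here as actin linkers include Tns4, whose product lacks the actin-binding part. Of these 11, 6 were higher (54.5%, beside 33.1% of all genes tested), 3 lower (27.3%, beside 31.3%) and 2 not called. Vcl, the gene of vinculin, which reinforces loaded talin, was at 85.7 ± 1.82 CPM in Ctrl and at 132 ± 5.14 in YAP5SA (mean ± SD of 4 libraries, as in later pairs of such values) and rose by 0.63 (SE 0.07, edgeR adjusted p = 1.47e-06), with 25.5% of its exon bases under the opposite gene Ap3m1. Zyx, the gene of zyxin, a LIM protein of mature adhesions and stress fibres, went the other way. It stood at 68.7, 74.4, 70.3 and 93.0 CPM in Ctrl and at 24.3, 18.9, 26.6 and 29.2 in YAP5SA, with no overlap, and fell by 1.63 on the log2 scale (SE 0.13, edgeR adjusted p = 1.09e-07). Its binding partner Vasp, an actin polymerase, was at 149, 158, 157 and 173 CPM and 72.3, 66.9, 86.0 and 87.8 CPM and fell by 1.03 (SE 0.09, edgeR adjusted p = 3.84e-07). Enah, a close relative of Vasp, rose instead, from 77.1 ± 5.74 to 119 ± 3.23 CPM (0.63, SE 0.07, edgeR adjusted p = 3.97e-06).

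Filamins crosslink actin and bind beta chain tails. Flnc, the muscle filamin, was at 7.89, 6.27, 5.25 and 6.98 CPM in Ctrl and at 40.4, 41.6, 47.1 and 37.4 in YAP5SA. The groups lay apart. It rose 6.34-fold (2.66, SE 0.13, edgeR adjusted p = 5.78e-10). Summed smooth muscle markers were 0.828 to 1.42 CPM in Ctrl and 0.911 to 1.65 CPM in YAP5SA. Of the 5, Tagln alone was tested and was lower, with 69 against 23 counts. Myh11 had 5 against 54 counts and Cnn1 0 against 10, both without overlap, Acta2 had 0 against 7 and Des 14 against 9. Their part in the Flnc result was not tested. The X-linked Flna was at 341 ± 58.0 CPM and 299 ± 12.3 CPM (-0.19, SE 0.10, edgeR adjusted p = 0.116), and was called without Ctrl replicate 2 (-0.28, adjusted p = 0.0261) or 3 (-0.27, adjusted p = 0.0359).

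Tensins bind beta chain tails in long-lived adhesions. Tns3 was at 116, 131, 118 and 128 CPM in Ctrl and at 288, 265, 265 and 278 in YAP5SA. Its groups were tight and apart, and Tns3 rose 2.23-fold (1.15, SE 0.07, edgeR adjusted p = 5.30e-09). Tns4, a short epithelial tensin without the actin-binding part, had the highest tensin level per kilobase and was at 184 ± 40.1 CPM in Ctrl and at 173 ± 9.71 in YAP5SA (-0.08, edgeR adjusted p = 0.567). Tns1 was at 0.94 (SE 0.25, edgeR adjusted p = 0.00418) from 1.83 CPM, and Tns2 at 0.52 (SE 0.17, edgeR adjusted p = 0.0149), a call that ended without Ctrl replicate 3 (0.46, adjusted p = 0.0523). In the share of the tensin level per kilobase, Tns3 went from 22.5 ± 3.56% to 39.1 ± 1.55% and Tns4 from 70.9 ± 5.75% to 53.5 ± 2.28%.

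Of the 4 signalling genes, 0 were called higher (beside 33.1% of all genes tested), 3 lower (75%, beside 31.3%) and 1 was not called. Src, the gene of the tyrosine kinase SRC, was at 97.8, 123, 109 and 133 CPM in Ctrl and at 73.1, 67.1, 77.0 and 83.5 in YAP5SA, without overlap, and fell by 0.62 (SE 0.10, edgeR adjusted p = 8.94e-05). Pxn, the gene of the scaffold paxillin, was at 92.4, 93.1, 95.3 and 96.4 CPM and 75.1, 74.8, 76.1 and 79.1 CPM, a small but very even difference (-0.31, SE 0.06, edgeR adjusted p = 0.000857). Ptk2, which encodes focal adhesion kinase, was at 66.7 ± 5.02 and 55.5 ± 0.682 CPM (-0.26, SE 0.08, edgeR adjusted p = 0.00685). Scaling by library size ended the calls of Pxn (-0.13, adjusted p = 0.0945) and Ptk2 (-0.09, adjusted p = 0.347). Bcar1, the SRC substrate also named p130Cas, was at 68.5, 74.4, 78.7 and 83.9 CPM in Ctrl and at 69.0, 60.6, 75.5 and 77.0 in YAP5SA; the groups overlapped (-0.12, SE 0.09, edgeR adjusted p = 0.285).

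Both plakins, the linkers of the hemidesmosome chain to keratin, fell. Plec was at 139, 162, 145 and 182 CPM in Ctrl and at 73.7, 57.1, 79.9 and 84.7 in YAP5SA (-1.09, SE 0.12, edgeR adjusted p = 2.07e-06). Dst was at 64.5, 68.0, 54.4 and 66.5 CPM and 41.5, 37.7, 48.6 and 45.0 CPM (-0.55, SE 0.10, edgeR adjusted p = 0.000209). Neither had overlapping groups. With Itgb4 and Itga6, the 4 members known from hemidesmosomes were all called lower, beside 31.3% of all genes tested. Itga6 was not called under scaling by library size. A list of 9 hemidesmosome partners gave 7 that could be tested: 2 rose (28.6%, beside 33.1% of all genes tested), 3 fell (42.9%, beside 31.3%) and 2 were not called. Cd151, the tetraspanin of laminin-binding integrins, rose by 0.68 (SE 0.07, edgeR adjusted p = 2.04e-06) and the laminin chain gene Lamb3 by 0.37 (SE 0.07, edgeR adjusted p = 0.000251). The keratin gene Krt8 was at -1.17 and Krt14 at -2.39, both called lower. Col17a1, a transmembrane collagen of skin hemidesmosomes, had 8 and 13 counts over the groups and was not tested.

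Because genes of a family within a library share its depth and scaling, 18 pairs were also compared by the log2 ratio of their counts. In 12 pairs the groups separated completely in an exact permutation test (two-sided p = 0.0286, the smallest that 4 against 4 libraries can give, and 0.0429 adjusted over the 18 pairs). The pairs were chosen with earlier results of these data known, so these p-values are no independent support. No share was computed for pairs of other genes, but 58.7% of all single genes tested had groups that did not overlap. Fermt2 to Fermt1 went from -6.05 ± 0.39 in Ctrl to 1.60 ± 0.25 in YAP5SA (mean ± SD, n = 4 each), a shift of 7.66. The ratio of Itga3 to Itga6 went from 0.04 ± 0.19 to 1.92 ± 0.12, and that of Itgb1 to Itgb4 from 2.05 ± 0.12 to 4.20 ± 0.22. Enah to Vasp changed sign, from -1.05 ± 0.17 to 0.61 ± 0.20, as did Tns4 to Tns3, from 0.55 ± 0.35 to -0.66 ± 0.12. These ratios take no account of gene length, so a change of sign is not a change in the order of levels. Per kilobase, mean Vasp stayed above mean Enah (60.9 against 3.59 CPM per kb in Ctrl, 29.9 against 5.55 in YAP5SA). Mean Tns4 likewise stayed above mean Tns3 (35.6 against 11.0 in Ctrl, 33.5 against 24.5 in YAP5SA). Itga1 to Itga2 shifted by -2.90, Flnc to Flna by 2.84, Parvb to Parva by 1.28, Tln2 to Tln1 by -1.05, Itgb5 to Itgb6 by 0.62 and Dst to Plec by 0.54. For the other 6 pairs no difference was called: Itgb8 to Itgb6 (2.58), Itga5 to Itgav (-1.18) and Tns2 to Tns3 (-0.60) each had an exact permutation p of 0.0571 (0.0686 adjusted), Tns1 to Tns3 was at -0.20, Lims2 to Lims1 at 0.21 and Itgb3 to Itgb5 at -0.44.

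**Figure D4:**
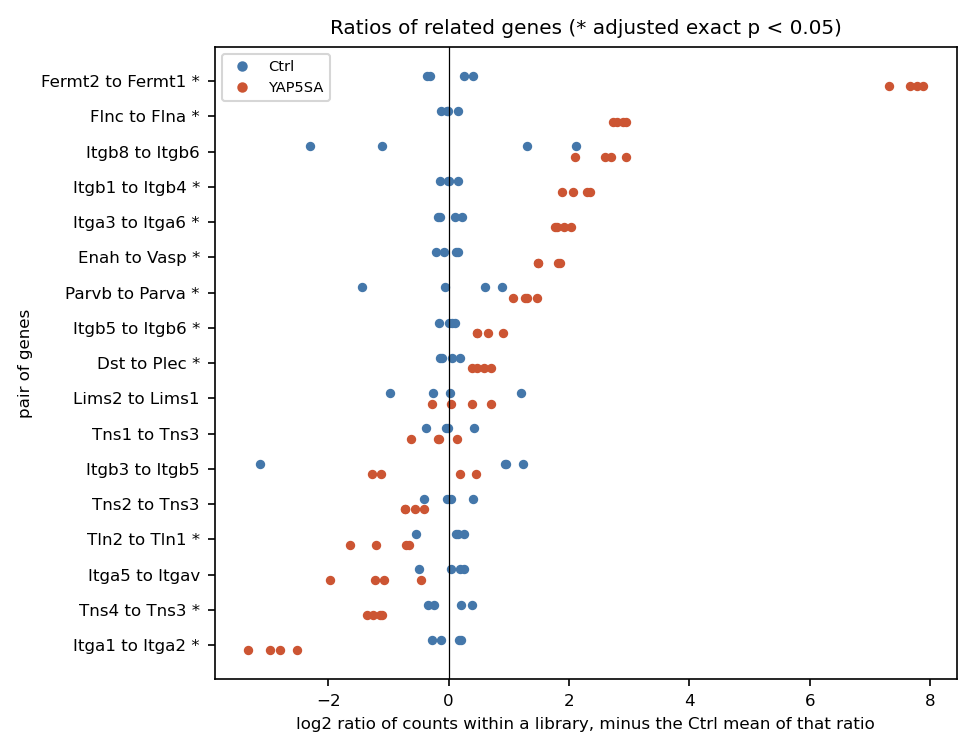
Log2 ratio of counts of 17 of the 18 pairs of related genes (y axis) within each library, drawn as the distance from the Ctrl mean of that ratio (x axis); each point is a library, Ctrl in blue and YAP5SA in red, and an asterisk marks an adjusted exact permutation p under 0.05. The Fermt2 to Fermt1 ratio shifts by 7.66, farther than any other pair drawn.

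The promoters of members were searched for motifs because YAP acts through TEAD factors, and SRF and AP-1 are known regulators of cytoskeletal genes. RefSeq promoters on GRCm38.p6, each 250 bases before to 50 bases after a start, were at hand for 38 of the 54 genes (47 promoters). The TEAD core GGAATG, on either strand, was in 6 of these 47 promoters (12.8%), beside 14.7% of all 32851 promoters. Its 5 genes were Itgb1, Vcl, Flnc, Flna and Itga10, the first 3 of which were called higher, beside 33.1% of all genes tested. The 6 promoters include overlapping ones of Flnc that share the same match. TGANTCA, the AP-1 motif, which reads the same on both strands, was in 4 (8.51%, beside 7.81% of all). The CArG box of SRF was in 3 (Vcl, Fermt2 and Itgb6; 6.38%, beside 1.63% of all). A match is a description of the letters and shows no binding. The letters printed are 3 promoters of genes that rose and carry the TEAD core, and that of Fermt2, the steepest rise, with the core (GGAATG, or CATTCC on the other strand) and the CArG box in capitals. In Itgb1 the core lies 7 to 2 bases before the start, in Vcl 143 to 138 bases before it with a CArG box at 227 to 218, and in Flnc 104 to 99 bases before it. The CArG box of Fermt2 lies 204 to 195 bases before the start, and that promoter holds no TEAD core.
Itgb1 (chr8:128685404-128685703, + strand): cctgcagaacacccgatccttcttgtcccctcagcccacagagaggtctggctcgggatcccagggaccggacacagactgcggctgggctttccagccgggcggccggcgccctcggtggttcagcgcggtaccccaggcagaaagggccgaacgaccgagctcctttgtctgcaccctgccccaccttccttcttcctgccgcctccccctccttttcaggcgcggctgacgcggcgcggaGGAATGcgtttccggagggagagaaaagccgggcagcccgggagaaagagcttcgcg
Vcl (chr14:20929148-20929447, + strand): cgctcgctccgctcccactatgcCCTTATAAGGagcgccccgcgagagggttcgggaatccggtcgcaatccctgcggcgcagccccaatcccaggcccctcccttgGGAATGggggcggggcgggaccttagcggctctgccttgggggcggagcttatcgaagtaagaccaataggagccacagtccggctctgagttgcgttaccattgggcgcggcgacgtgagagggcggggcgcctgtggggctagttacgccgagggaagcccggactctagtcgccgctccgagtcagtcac
Flnc (chr6:29433006-29433305, + strand): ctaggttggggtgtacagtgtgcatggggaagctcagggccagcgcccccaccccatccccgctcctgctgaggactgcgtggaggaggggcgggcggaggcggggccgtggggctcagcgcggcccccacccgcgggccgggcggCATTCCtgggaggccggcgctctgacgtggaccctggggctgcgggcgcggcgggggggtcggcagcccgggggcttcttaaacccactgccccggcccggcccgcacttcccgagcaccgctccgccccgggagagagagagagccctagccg
Fermt2 (chr14:45530016-45530315, - strand): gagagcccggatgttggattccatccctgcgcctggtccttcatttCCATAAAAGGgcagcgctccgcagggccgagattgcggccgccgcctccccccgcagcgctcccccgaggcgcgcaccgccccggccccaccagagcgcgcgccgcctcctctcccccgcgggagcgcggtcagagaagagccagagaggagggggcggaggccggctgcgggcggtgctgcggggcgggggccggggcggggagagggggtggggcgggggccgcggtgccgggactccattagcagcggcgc

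Other proteins of focal adhesions, 41 genes beyond the members, moved in both directions. Among the 37 with enough counts 11 rose (29.7%, beside 33.1% of all genes tested), 16 fell (43.2%, beside 31.3%) and 10 were not called, with a median log2 fold change of -0.16. The rises with the smallest p were those of Cav1, the gene of the caveolar coat protein caveolin, at 7.37 (SE 0.16), and of Kank4 and Kank1, talin-binding proteins of the adhesion rim, at 3.54 (SE 0.25) and 3.86 (SE 0.33). The falls were those of the kinase gene Pak1 at -1.36 (SE 0.08), the actin-binding LIM protein gene Ablim1 at -1.10 (SE 0.08) and Pdlim5 at -0.74 (SE 0.06). Of 21 tested regulators of integrin activity and traffic, 8 were higher (38.1%) and 7 lower (33.3%), shares near the 33.1% and 31.3% of all genes tested, with 6 not called and a median of 0.01. Cd81 (1.70) and Cd9 (0.95), tetraspanins that associate with integrins, rose. So did the endocytic adaptor gene Dab2 (4.32, SE 0.44), at a very low level, with 10 against 222 counts over a group. It had enough counts to be tested only through the YAP5SA libraries. Rab25 (-0.49), a recycling GTPase gene, the urokinase receptor gene Plaur (-1.19) and Slc3a2 (-0.61), the heavy chain gene of CD98, fell.

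Among 25 tested genes of the matrix that integrins bind, 17 were higher (68%, beside 33.1% of all genes tested), 5 lower (20%, beside 31.3%) and 3 not called, with a median of 0.84 beside 0.02. Their summed level was 2330 to 2452 CPM in Ctrl and 5661 to 6038 CPM in YAP5SA. Col4a1 and Col4a2, which encode the common type IV collagen of basement membranes, went from 27.3 ± 3.07 to 461 ± 13.7 CPM (4.08, SE 0.09) and from 30.3 ± 6.14 to 704 ± 38.4 CPM (4.54, SE 0.13). Thbs1, the gene of thrombospondin, rose by 3.53 (SE 0.09). Itga1, a receptor chain for that collagen, fell by 3.31, as given above. Fn1, the fibronectin gene, named here after its values were seen, rose by 1.23 (SE 0.10), while Itga5 was at 1.17 ± 0.264 and 0.880 ± 0.364 CPM. Nid1 (-2.81), a linker of laminin and collagen, and Ltbp1 (-0.58) fell.

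**Figure D5:**
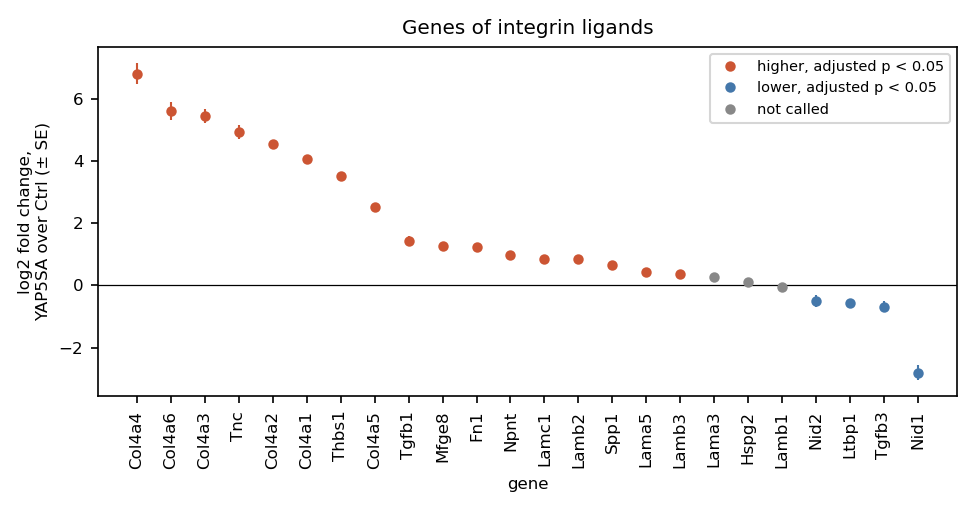
Log2 fold change of YAP5SA over Ctrl (y axis, ± SE of the edgeR fit) for 24 of the 25 tested genes of integrin ligands (x axis), coloured by call at an adjusted p under 0.05. The type IV collagen genes Col4a1 and Col4a2 lie at 4.08 and 4.54, and Nid1 is lowest at -2.81.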

How the data were processed

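The deposited table holds whole-number counts of reads per gene, which the authors made with cutadapt, HISAT2 2.0.1 and HTSeq 0.6.1 on mm9, per the submitters' processing notes. The sources used here give no annotation, strand setting or filter. RNA came from organoids, with libraries made by a VAHTS Universal V8 kit and sequenced in pairs, per the labels' protocols. Both groups have 4 libraries of 17387372 to 25841256 counts, and depth limits scarce genes: 3 counts are 0.116 to 0.173 CPM.

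Genes with enough counts (filterByExpr, minimum count 10, minimum total 15) were scaled by TMM and fitted with edgeR 4.0.16 in R 4.3.3 (quasi-likelihood test, YAP5SA against Ctrl, no covariate), with Benjamini-Hochberg adjustment over 13812 genes. SEs were obtained by dividing a log2 fold change by the root of its F statistic. CPM use totals multiplied by TMM factors, and lengths and overlaps come from GENCODE M21 (GRCm38) by symbol, a later build than the counts. Ratios of counts used a pseudocount of 0.5 and a two-sided exact permutation test, and scarce genes an exact counting interval, which covers counting error only. On simulated data (13648 genes tested), 75.3% of 73 genes with a 1.5-fold change were found, 98.4% of 61 with 2-fold and 100% of 65 with 4-fold, and 1.1% of calls were false. The simulation changed few genes, up or down at random, and gave every gene the same biological coefficient of variation (0.127). In the real comparison 64.5% of genes tested were called, so these rates need not hold for it.

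In each role, the 2 highest and 2 lowest called members and the 2 most abundant per length were given by library. Ilk and Ptk2, which that rule also covers, were given as mean ± SD. In each list up to 3 called genes of smallest p per direction could be named. The members, the 12 gene lists and the 18 pairs were chosen with earlier results of these data known. Alternatives were DESeq2 1.42.0, limma-voom (limma 3.58.1), other scalings and filters, a replicate block, a test against a 2-fold change and each library left out. Of the genes counted, 1 member with its pair, 1 ligand gene and 1 marker are not reported here by name.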

Additional observations from a re-analysis of the deposited data

How the results depend on the processing

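Member calls were 20 higher and 15 lower, and 19 to 20 and 14 to 16 with each library left out in turn; over 2-fold calls were 11 to 12 and 5 to 7. DESeq2 and DESeq2's size factors in edgeR left all 42 members on the same side of the threshold. Tested against a 2-fold change, 8 members were higher and 5 lower, with 4 and 1 for other adhesion proteins, 4 and 0 for regulators, 11 and 1 for ligands and 0 and 1 for hemidesmosome partners; over all genes this test called 2221 in place of 8907, by its construction. Scaling by library size gave 20 members higher and 10 lower, 5742 genes higher and 3201 lower in all, and 4 hemidesmosome partners higher; it ended the calls of Itga6, Itga2, Itgb2, Ptk2 and Pxn, and turned the uncalled Tns4 (0.086) and Bcar1 (0.061). The other uncalled values that changed sign were Itga10 without Ctrl replicate 4 (0.082, against -0.50 without Ctrl replicate 1) and Itgb7 by limma-voom (0.38), by library size (0.11) and without Ctrl replicate 1 (0.19), Ctrl replicate 4 (0.10) or YAP5SA replicate 3 (0.15). The cause was not tested. With each library left out, the lists gave 11 to 12 higher and 15 to 17 lower other adhesion proteins, 8 higher and 6 to 7 lower regulators, 17 to 19 and 4 to 5 ligands, and 2 to 3 and 3 to 4 hemidesmosome partners. Without the filter, 52 members were tested, 22 higher and 15 lower, beside 4989 higher and 4727 lower of all 26206 genes tested. The call of Itgb2 also ended by limma-voom (adjusted p = 0.0583) and without the filter (adjusted p = 0.0734). The median log2 fold change of members ran from -0.16 to 0.17 over the settings.

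Replicate numbers were not shown to pair the samples: deviations of same-numbered libraries correlated at 0.07, 0.05, 0.09 and 0.28, and 2 of the 4 Ctrl libraries correlated best with their own number. With the replicate number as a block, 20 members were higher and 15 lower and 9174 genes were called in all; Itgb2 was no longer called (edgeR adjusted p = 0.0583) and Tln2 was (-0.49, edgeR adjusted p = 0.0320). Sign flips within 4 pairs cannot give a p below 0.125, so the ratios have no paired call. Depth left 12 members untested, for which only counts and counting intervals are given.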

Other observations

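Among the 28 members at 10 CPM or more in both groups, the median coefficient of variation (SD over mean of CPM, n = 4) was 9.64% in Ctrl and 7.68% in YAP5SA. In Ctrl it ran from 1.99% for Pxn to 32.6% for Itga7, and in YAP5SA from 1.23% for Ptk2 to 17.7% for Zyx. No member had a library far enough from the others of its group to stand out by Dixon's test, which was run on 84 sets of 4 values.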
